A study of Rattus norvegicus with 2 samples.

Results

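The cell cycle and DNA replication genes described here are a list of 40 gene symbols, and they were found by symbol in a table of read counts for rat RBL-2H3 cells. Of the 40 symbols, 39 were among the 14913 gene names of the table, and E2f1 was not analysed here. All 39 passed the minimum of 20 reads over both libraries, and the fewest reads of any of them was 416. RBL-2H3 is an established basophilic leukemia line that is used as a model of mast cells and basophils and that divides in culture. The IgE group was 1 library of wild-type cells incubated with IgE, and the untreated group was 1 library of wild-type cells without treatment. The labels give neither the dose nor the time of the incubation, and they do not say whether antigen was added. The study asked what follows when IgE acts on its receptor in rat basophils.

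Division is driven by cyclin-dependent kinases, which are switched on by cyclins that are made and destroyed in turn. In G1, D-type cyclins with Cdk4 or Cdk6, and then E-type cyclins with Cdk2, phosphorylate the retinoblastoma protein and release E2F factors, which switch on the genes for DNA replication. Later in the cycle, cyclins A and B with Cdk1 bring about mitosis, whose genes are held down in resting cells and switched on in G2 through a promoter element called CHR. In mast cells, IgE receptor signals act on survival and secretion, and growth factors such as Kit ligand drive division.

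The libraries held 26268330 counted reads with IgE and 20917968 untreated. With 1 library per group there was no replicate, so no test across samples was made and no difference below has a replicate check. Differences are given as the log2 fold of CPM (reads scaled to a common library size, with TMM factors), IgE over untreated. The interval after a fold is a 95% interval of the read ratio by the exact Clopper-Pearson method, and it covers counting error only. All 10 mast cell and basophil markers were counted, with summed levels of 7740 CPM with IgE and 7566 CPM untreated. Of 6 macrophage markers 2 were measured, with summed levels of 2.94 and 4.24 CPM in the IgE and the untreated library. Of 5 T and B cell markers 2 were measured, with 12.1 and 10.6 CPM in the same order. Of 4 fibroblast markers 1 was measured, Col3a1, at 252.8 and 281.3 CPM, and of 3 epithelial markers 0 were.

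Transcripts of the cell cycle differed little between the libraries. None of the 39 genes was 2-fold apart, where 2.63% of the 12102 genes with 20 or more reads and 0.00% of the 5079 genes with 2000 or more reads were. The range was from -0.30 for Ccnd1, which encodes cyclin D1, to 0.15 for Cdkn1a, which encodes the kinase inhibitor p21. The median was -0.03, against 0.00 for all genes with 20 or more reads. Of the 39 genes, 16 lay above 0 and 23 below, or 15 and 24 with library totals in place of TMM. Among the 12102 genes with 20 or more reads, 6181 lay above 0 and 5921 below. Among the 5079 with 2000 or more reads, 2450 lay above 0 and 2629 below. The sign counts of classes and lists below stand against these. Together they took 1.14% of the reads with IgE and 1.16% untreated. In bulk RNA, fewer cells in a phase of the cycle and less RNA per cell cannot be told apart. With 1 library per group, neither can be told apart from variation between cultures or libraries.

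Sequencing was deep enough for small differences in these genes to exceed counting error. The median gene of the list had 7332 reads, and 38 of the 39 had 2202 or more. The counting interval lay above 0 for 10 of the 39 genes and below 0 for 14. The same held for 26.9% and 27.4% of the genes with 2000 or more reads. Without Ccnd1, the folds of the other 38 genes had an SD of 0.09, against 0.14 for genes with 2000 or more reads. A smaller fold of 1.2 was passed by none of the 39 genes upward, where 13.1% of genes with 20 or more reads and 4.17% of those with 2000 or more passed it. Downward it was passed by 1 gene, Ccnd1, where 10.9% and 1.91% of these genes did. In the authors' deposited table, all 39 had an adjusted p of 1, none had an unadjusted p under 0.05 (4.44% of genes with 20 or more reads and 0.847% of those with 2000 or more did), and none was among the 451 names of the authors' selected list.

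**Figure D1:**
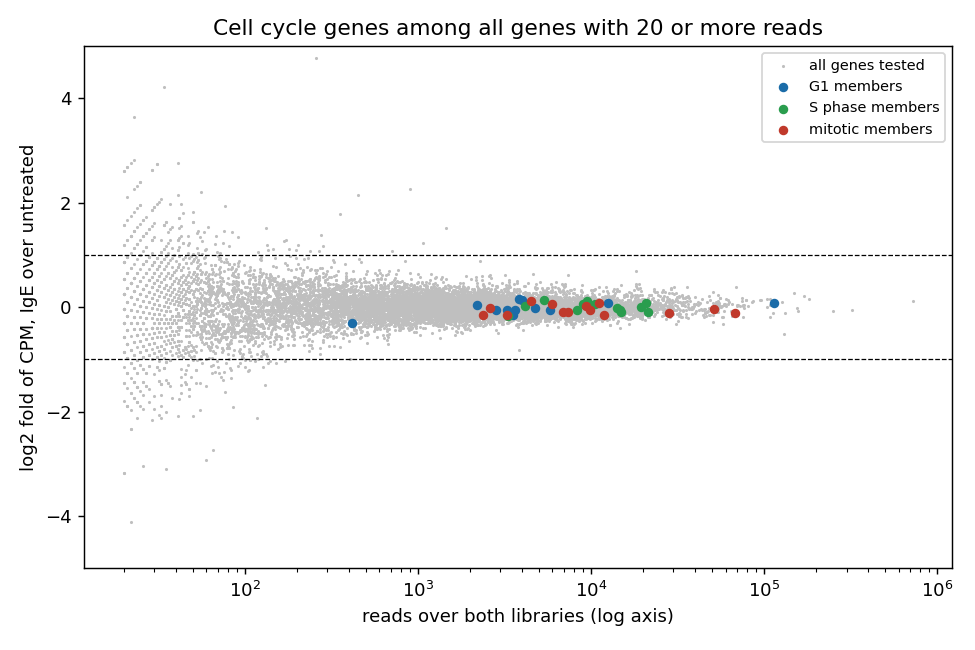
Log2 fold of CPM (IgE over untreated) against the reads of each gene over both libraries (log axis), for all genes with 20 or more reads (grey) and for the G1, S phase and mitotic genes (colours). Dashed lines mark a 2-fold difference, and the 39 coloured genes lie between -0.30 and 0.15.

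The 12 measured G1 genes had a median log2 fold of -0.04, with 5 above 0 and 7 below. Their summed reads, most of which were those of Ccnd2, gave a fold of the other sign, 0.06 (0.04 to 0.07). The D-type cyclin genes lay on either side of 0. Ccnd2, encoding cyclin D2, had 64886 reads with IgE and 49392 untreated, which is 2478 and 2354 CPM. Its fold of 0.07 (0.06 to 0.09) was small but lay outside counting error. Ccnd1 had 209 and 207 reads in the IgE and the untreated library, or 7.98 and 9.86 CPM, with a fold of -0.30 (-0.59 to -0.02). That was the lowest fold of the list, and it rested on the fewest reads. Of the 1097 genes with 300 to 600 reads, 22.2% lay as far from 0 in either direction, and 9.12% were as low or lower. Ccnd3, encoding cyclin D3, was at 67.8 CPM with IgE and 70.8 CPM untreated, a fold of -0.06 (-0.16 to 0.04) that spans no difference.

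The kinases that partner G1 cyclins also lay on either side of 0. Cdk4 was at 272.4 CPM with IgE and 258.1 CPM untreated, with a fold of 0.08 (0.03 to 0.13). Cdk6, its close relative with the same cyclin partners, was at 75.7 and 78.8 CPM in the IgE and the untreated library, with a fold of -0.06 (-0.15 to 0.04). Cdk2, the partner of cyclins E and A, was at 71.8 and 79.5 CPM in the same order, with a fold of -0.15 (-0.24 to -0.05). It was the second lowest G1 gene, yet 26.6% of genes with 2000 or more reads lay as far from 0. The cyclin E genes were level within counting error, Ccne1 at 0.03 (-0.09 to 0.16) and Ccne2 at -0.05 (-0.16 to 0.06).

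The restraints on G1 included the highest folds of the list. Cdkn1a had 2226 reads with IgE and 1605 untreated, or 85.0 and 76.5 CPM, and a fold of 0.15 (0.06 to 0.25). Rb1, which encodes the retinoblastoma protein, had 2329 reads with IgE and 1692 untreated, or 88.9 and 80.6 CPM, and a fold of 0.14 (0.05 to 0.23). Of genes with 2000 or more reads, 24.9% and 28.3% lay as far from 0 as these genes. Cdkn1b, the p27 inhibitor that holds resting cells in G1, was at 99.6 CPM with IgE and 101.1 CPM untreated, a fold of -0.02 (-0.11 to 0.06). Myc, a growth-promoting transcription factor, was at 121.1 CPM with IgE and 125.6 CPM untreated, and its fold of -0.05 (-0.13 to 0.02) spanned no difference as well.

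**Figure D2:**
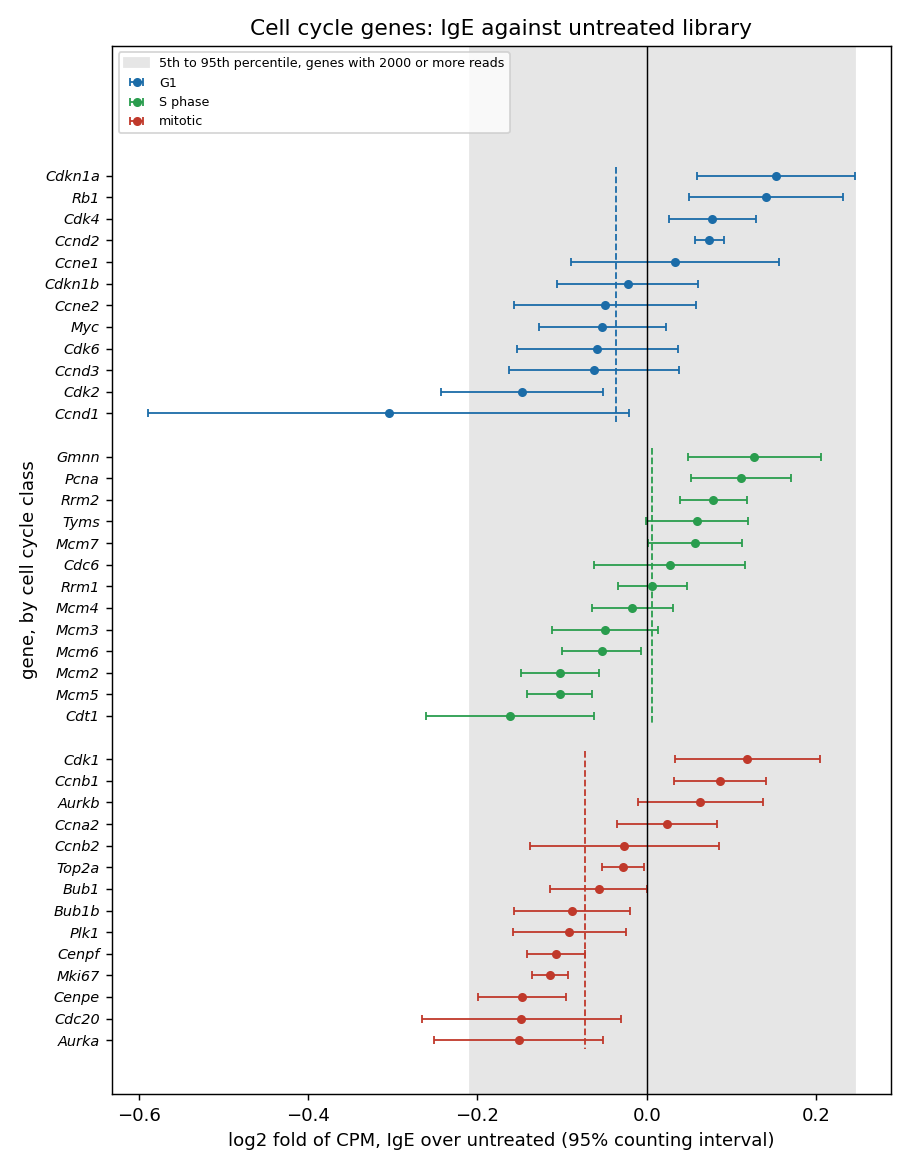
Log2 fold of CPM (IgE over untreated) of each gene with its 95% counting interval, by class. Dashed lines are class medians (-0.04 for G1, 0.01 for S phase, -0.003 with library totals, and -0.07 for mitotic genes), and the grey band holds the 5th to 95th percentile of genes with 2000 or more reads (-0.21 to 0.25), outside of which only Ccnd1 lies.

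Promoter sequences were searched for letters known from each class. RefSeq promoters of build GRCr8 were found for 29 of the 39 genes, and the 250 bases before the first listed start of each were read on both strands. The G1 set of 7 promoters held no E2F match (TTTCCCGC, TTTGGCGC, TTTCGCGC or TTTGCCGC) and no CHR match (TTTGAA or TTCGAA). Of the promoters of genes with 20 or more reads, 3.71% and 12.2% held one, so that few or none would be found in 7. One of the 7 held the E-box CACGTG, the letters bound by Myc and Max, where 8.49% of the promoters of genes with 20 or more reads did. This was Cdk4, whose stretch is shown because it carries the match 3 times (chr7:64771248-64771365, plus strand, E-boxes in capitals).
Cdk4: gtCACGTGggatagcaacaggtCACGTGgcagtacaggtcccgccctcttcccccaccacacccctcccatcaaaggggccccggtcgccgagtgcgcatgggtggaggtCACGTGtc

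The 13 S phase genes had a median log2 fold of 0.01, which was -0.003 with library totals in place of TMM, with 7 above 0 and 6 below. None passed 1.2-fold. The 4 genes for nucleotide supply and the sliding clamp were above 0 (Rrm1 was not with library totals), with the counting interval above 0 for 2 of them. Of the 6 helicase genes 5 were below 0, with the interval below 0 for 3 and above 0 for 1. Of all genes with 2000 or more reads, 26.9% had an interval above 0 and 27.4% had one below 0. Pcna, the clamp that holds polymerase on DNA, was at 208.4 CPM with IgE and 192.9 CPM untreated, with a fold of 0.11 (0.05 to 0.17). Rrm2, the small subunit of ribonucleotide reductase, was at 451.9 and 427.8 CPM in the IgE and the untreated library, with a fold of 0.08 (0.04 to 0.12). Rrm1, the large subunit of the same enzyme, had 413.9 and 412.0 CPM in that order and a fold of 0.01 (-0.03 to 0.05). Tyms, which makes thymidylate, was at 195.3 CPM with IgE and 187.4 CPM untreated. Its fold of 0.06 (-0.00 to 0.12) reached just to no difference.

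Mcm2 to Mcm7 encode the 6 subunits of the ring that unwinds DNA at the fork, and 1 copy of each is needed per ring. The subunits had a median of -0.05 and ranged from -0.10 to 0.06. Mcm5 was at 439.5 CPM with IgE and 472.1 CPM untreated, a fold of -0.10 (-0.14 to -0.06). Mcm2 was at 307.0 and 329.6 CPM in the same order, a fold of -0.10 (-0.15 to -0.06). These were the lowest of the ring, and 43.0% and 43.4% of genes with 2000 or more reads lay as far from 0. Mcm6 was at -0.05 (-0.10 to -0.01), Mcm3 at -0.05 (-0.11 to 0.01) and Mcm4 at -0.02 (-0.07 to 0.03). Mcm7 alone lay above 0, at 227.3 CPM with IgE and 218.4 CPM untreated, a fold of 0.06 (0.00 to 0.11). The summed reads of the 6 genes took 0.175% of the reads with IgE and 0.183% untreated, a fold of -0.05 (-0.07 to -0.03).

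Loading of the ring at origins is limited to G1 by a pair of opposed proteins, and their transcripts lay at opposite ends of the S phase class. Cdt1, which brings the ring to origins, had 1742 reads with IgE and 1561 untreated, or 66.5 and 74.4 CPM, and a fold of -0.16 (-0.26 to -0.06). Gmnn, which encodes geminin, the inhibitor of Cdt1, had 3092 reads with IgE and 2269 untreated, or 118.1 and 108.1 CPM, and a fold of 0.13 (0.05 to 0.21). The read ratio of Gmnn to Cdt1 was thus 1.77 with IgE and 1.45 untreated, a log2 change of 0.29 (0.16 to 0.41). Of all pairs of genes with 2000 or more reads, 13.7% were as far apart in fold. This pair was chosen with the folds known, so that share does not measure how unusual it is. Cdc6, which loads the ring together with Cdt1, lay between, at 89.1 CPM with IgE and 87.4 CPM untreated, with a fold of 0.03 (-0.06 to 0.12).

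E2F matches lay in 5 of the 10 S phase promoters found, against 3.71% of the 8560 promoters of genes with 20 or more reads and 1.81% of all 27457 promoters. The matches below are shown because 3 of the 4 belong to the helicase ring. E2F letters are in capitals, and in Mcm7 also a CCAAT box, which overlaps the E2F match by its first base. In Mcm5 and Mcm6 matches on both strands overlap. The stretches lie at chr19:13488598-13488613 (plus strand), chr13:42404477-42404497, chr12:22163217-22163236 and chr9:120776108-120776128 (minus strand).
Mcm5: agTTTCGCGCCAAAac
Mcm6: tctgctTTTGGCGCGAAAtta
Mcm7: acgacgTTTCGCGCCAATtt
Tyms: gtgcgggtTTTGGCGCcgact

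The 5 S phase genes with an E2F match had a median fold of -0.05 and the other 5 of 0.01. Tyms and Mcm7 lay above 0 and Mcm2, Mcm5 and Mcm6 below, so the sign of the fold differed among promoters with the same letters. Over all genes with 20 or more reads and a promoter, those with an E2F match had a median of -0.02 and those without one of 0.00.

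The 14 mitotic genes had the lowest median of the classes, at -0.07, with 4 above 0 and 10 below. Among genes with 2000 or more reads, 2450 lay above 0 and 2629 below. The counting interval lay below 0 for 8 of the 14 and above 0 for 2, where 27.4% and 26.9% of genes with 2000 or more reads had such intervals. None of the 14 passed 1.2-fold, where 4.17% of those genes did so upward and 1.91% downward. Their summed reads took 0.463% of the IgE library and 0.487% of the untreated library, a fold of -0.07 (-0.08 to -0.05). Medians of the classes differed by -0.04 between mitotic and G1 genes and by -0.08 between mitotic and S phase genes, and neither difference has a replicate check.

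Of the mitotic cyclins and their kinase, 3 of 4 lay above 0. Cdk1, the kinase that starts mitosis, was at 99.3 CPM with IgE and 91.4 CPM untreated, with a fold of 0.12 (0.03 to 0.20). Ccnb1, encoding cyclin B1, was at 243.0 and 228.8 CPM in the IgE and the untreated library, with a fold of 0.09 (0.03 to 0.14). Ccna2, encoding cyclin A2, was at 199.0 and 195.7 CPM in that order, with a fold of 0.02 (-0.04 to 0.08). The remaining cyclin B gene was level within counting error, Ccnb2 being at 55.3 CPM with IgE and 56.3 CPM untreated, with a fold of -0.03 (-0.14 to 0.09). As a group these 4 had a median of 0.06.

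Of the 5 genes for kinases of the spindle and its checkpoint none passed 1.2-fold, and the counting interval lay below 0 for 3 and above 0 for 0. Of all genes with 2000 or more reads, 27.4% had an interval below 0 and 26.9% had one above 0. Past 1.2-fold were 4.17% of those genes upward and 1.91% downward. Aurka, which builds spindle poles, was at 66.0 CPM with IgE and 73.3 CPM untreated, a fold of -0.15 (-0.25 to -0.05). Plk1, a kinase needed through mitosis, was at 151.0 and 160.9 CPM in the same order, a fold of -0.09 (-0.16 to -0.02). Aurkb, which corrects chromosome attachment, lay above 0, alone of the 5, at 128.9 CPM with IgE and 123.4 CPM untreated, a fold of 0.06 (-0.01 to 0.14). The checkpoint kinase genes Bub1 and Bub1b were at -0.06 (-0.11 to 0.00) and -0.09 (-0.16 to -0.02). Cdc20, which activates the anaphase-promoting complex once the checkpoint is met, had 1259 reads with IgE and 1118 untreated, or 48.1 and 53.3 CPM, a fold of -0.15 (-0.27 to -0.03).

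The other 4 mitotic genes were between -0.15 and -0.03. Mki67, which coats mitotic chromosomes and is used as a mark of dividing cells, had 36495 reads with IgE and 31660 untreated, or 1394 and 1509 CPM. Its fold of -0.11 (-0.14 to -0.09) was small, and 38.3% of genes with 2000 or more reads lay as far from 0. Cenpe, a kinesin that carries chromosomes to the spindle equator, was at 241.9 CPM with IgE and 267.9 CPM untreated, a fold of -0.15 (-0.20 to -0.10). Cenpf, a large kinetochore protein gene, was at 578.2 and 622.8 CPM in the IgE and the untreated library, a fold of -0.11 (-0.14 to -0.07). Top2a, the topoisomerase that untangles chromosomes, was close to level, at 1087 CPM with IgE and 1109 CPM untreated, a fold of -0.03 (-0.05 to -0.00).

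**Figure D3:**
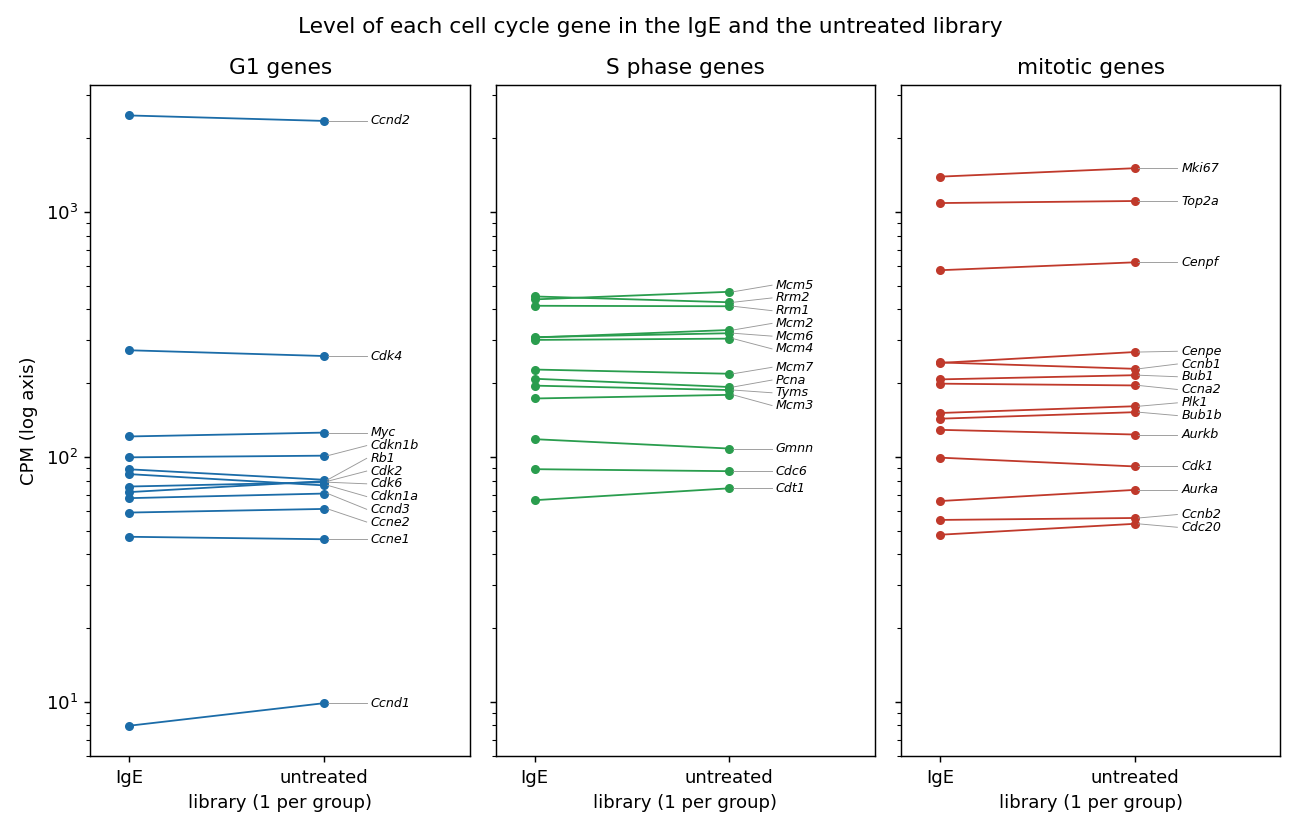
CPM (log axis) of each gene in the IgE library (left) and the untreated library (right), 1 library per group, in 3 panels for G1, S phase and mitotic genes. The lines are nearly flat; Ccnd1, at 7.98 CPM with IgE and 9.86 CPM untreated, has the steepest. CPM is not divided by transcript length, so heights of different genes do not compare levels.

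CHR matches lay in 6 of the 12 mitotic promoters found and in 3 of the 10 S phase promoters, against 12.2% of the promoters of genes with 20 or more reads. CCAAT, the box bound by NF-Y, lay in 9 of the 12 mitotic and in 7 of the 10 S phase promoters, against 36.6%. The stretches below are shown for the placing of CCAAT and CHR near the start, and CCAAT or its reverse ATTGG, CHR and, in Cdk1, an E2F match are in capitals. In Mki67 the second CHR match and the reverse CCAAT share 1 base. They lie at chr20:19265155-19265288 (plus strand), chr8:79981689-79981798, chr5:137255830-137255891 and chr1:199952681-199952738 (minus strand).
Cdk1: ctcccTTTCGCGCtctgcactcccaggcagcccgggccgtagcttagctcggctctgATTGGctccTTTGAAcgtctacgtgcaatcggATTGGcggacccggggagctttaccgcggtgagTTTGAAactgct
Ccnb2: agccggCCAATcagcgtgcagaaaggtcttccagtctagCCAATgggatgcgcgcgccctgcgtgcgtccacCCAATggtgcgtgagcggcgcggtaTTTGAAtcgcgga
Cdc20: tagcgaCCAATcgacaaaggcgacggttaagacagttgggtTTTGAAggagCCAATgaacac
Mki67: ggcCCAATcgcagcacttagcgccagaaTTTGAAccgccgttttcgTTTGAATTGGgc

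Of the mitotic genes with both CCAAT and CHR letters, Cdk1 alone lay above 0, at 0.12. The others lay below 0, with Ccnb2 and Top2a at -0.03, Mki67 at -0.11 and Cdc20 at -0.15. The 6 mitotic genes with a CHR match had a median of -0.06 and the other 6 of -0.10. CREs (TGACGTCA), the letters bound by CREB, lay in 1 mitotic promoter, that of Cenpe, and 1 S phase promoter, that of Mcm5, against 3.03% of the promoters of genes with 20 or more reads.

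Ratios of 2 genes within a library do not depend on how the libraries are scaled. They were taken for 16 pairs of related members, chosen and ordered with the folds known, so that the count of each sign carries no weight. For the same reason, shares over all pairs of genes do not measure how unusual a pair is. For 9 pairs the counting interval of the log2 change lay above 0, and for 0 below it. Such intervals were not counted over all pairs of genes. Besides Gmnn and Cdt1, the ratio of Cdk1 to Cdk2 was 1.38 with IgE and 1.15 untreated, a log2 change of 0.27 (0.14 to 0.39). The ratio of Aurkb to Aurka was 1.95 with IgE and 1.68 untreated, a log2 change of 0.21 (0.09 to 0.34). Pairs of genes with 2000 or more reads were as far apart in 16.7% and 26.0% of cases. The change was 0.17 (0.05 to 0.30) for Cdkn1a over Cdkn1b, 0.16 (0.09 to 0.23) for Mcm7 over Mcm2, and 0.14 (0.03 to 0.24) for Cdk4 over Cdk6. As far apart as these were 35.5%, 39.8% and 46.9% of pairs of genes with 2000 or more reads, in that order. Ccnb1 over Cdk1 changed by -0.03 (-0.13 to 0.07) and Rrm2 over Rrm1 by 0.07 (0.02 to 0.13). Both pairs are partners in a complex, as are Mcm7 and Mcm2.

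**Figure D4:**
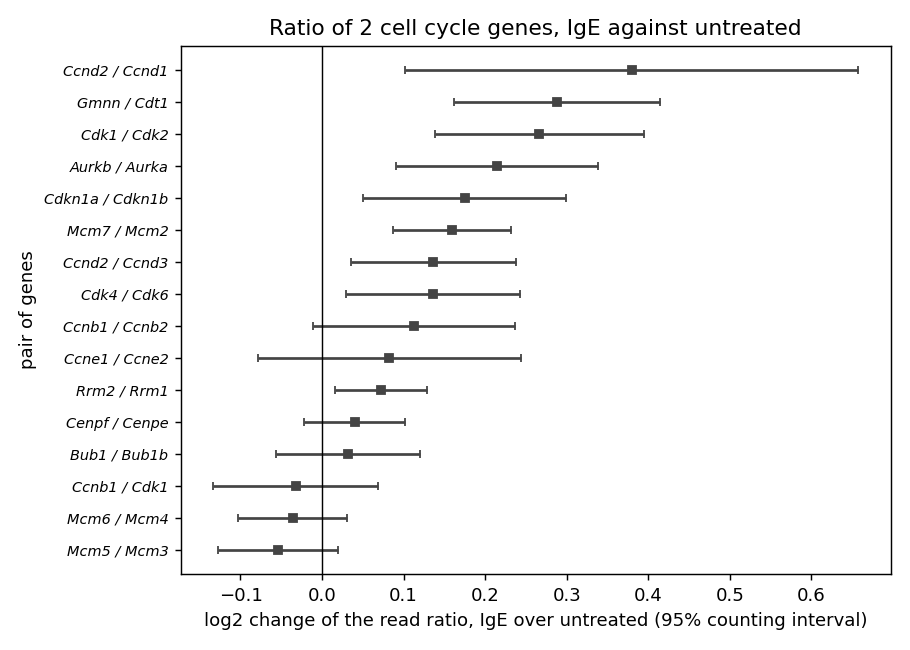
Log2 change (IgE over untreated) of the read ratio of 2 related genes within a library, with its 95% counting interval, for 16 pairs. Ccnd2 over Ccnd1, the gene with the fewest reads, has the largest change, 0.38, and the widest interval (0.10 to 0.66). Gmnn over Cdt1 lies at 0.29.

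Wider lists of cell cycle genes held no gene 2-fold apart. Their counts of genes past 1.2-fold stand against 13.1% of genes with 20 or more reads that were higher and 10.9% that were lower. Among genes with 2000 or more reads, 4.17% were higher and 1.91% lower. The lists hold genes of both depths, so neither share is matched to them. Of 20 origin firing genes, 0 were 1.2-fold higher and 1 was 1.2-fold lower, with a median of 0.00 that was -0.01 with library totals and also below 0 with DESeq2 size factors. The origin recognition subunit genes Orc5 (0.23, 0.13 to 0.33) and Orc6 (0.20, 0.07 to 0.33) were highest. Mcm9 (-0.27, -0.42 to -0.12) and Mcm8 (-0.13, -0.24 to -0.01), which encode a helicase used in DNA repair, were lowest. Of 31 replication fork and nucleotide genes, 3 were 1.2-fold higher and 0 lower, with a median of 0.04. Dut, which removes dUTP, was at 158.0 CPM with IgE and 127.4 CPM untreated, a fold of 0.31 (0.24 to 0.38), and Rpa3, which encodes a subunit of the single-strand binding protein, was at 0.27 (0.18 to 0.36). The lowest were the polymerase gene Pold1 (-0.20, -0.27 to -0.13) and the maintenance methyltransferase gene Dnmt1 (-0.15, -0.19 to -0.12).

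The wider mitosis list had a median of -0.01, against -0.07 for the mitotic members above. Of its 38 measured genes, 2 were 1.2-fold higher and 0 lower, again no more than the 13.1% and 10.9% of all genes. Pttg1, encoding securin, was at 28.7 CPM with IgE and 23.0 CPM untreated, a fold of 0.32 (0.15 to 0.49). Ube2c, the ubiquitin-conjugating enzyme of the anaphase-promoting complex, was at 73.7 and 59.9 CPM in the same order, a fold of 0.30 (0.20 to 0.40). Incenp, the scaffold of the Aurora B complex, was at -0.23 (-0.28 to -0.17) and Foxm1, a transcription factor of mitotic genes, at -0.23 (-0.74 to 0.27) on 70 reads with IgE and 66 untreated. Of 15 measured genes of the anaphase-promoting complex and its regulators, 0 passed 1.2-fold, and the median was -0.01, from Anapc2 (-0.16) and Fzr1 (-0.11) to Anapc10 (0.12) and Anapc15 (0.18).

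Of 31 measured G1 regulators, 1 was 1.2-fold higher and 2 were lower, with a median of -0.02. E2f2, an activating E2F, was at 10.7 CPM with IgE and 13.6 CPM untreated, a fold of -0.35 (-0.59 to -0.11). Tfdp2, an E2F partner, was at -0.27 (-0.47 to -0.08). Cdkn2a, which encodes the p16 and Arf proteins, had 48 reads with IgE and 27 untreated, so that its fold of 0.50 (-0.20 to 1.25) spanned no difference, and Lin52 was at 0.19 (0.01 to 0.37). Of 20 checkpoint genes, 0 passed 1.2-fold, and the median was -0.06. Mdc1 and Tp53bp1, which gather repair proteins at DNA breaks, were both at -0.23, while the checkpoint kinase gene Chek2 was at 0.12 and Brca2 at 0.10.

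Of 16 measured p53 targets, which were listed because Cdkn1a is one, 2 were 1.2-fold higher and 1 lower, with a median of 0.11. Among genes with 20 or more reads 13.1% and 10.9% were, and among those with 2000 or more 4.17% and 1.91%. Gadd45a, a growth arrest gene, had 8597 reads with IgE and 5594 untreated, or 328.3 and 266.6 CPM, a fold of 0.30 (0.25 to 0.35). Gadd45b was at 0.31 (0.06 to 0.57), and Sesn2 (-0.26, -0.35 to -0.18) and Zmat3 (-0.11, -0.22 to 0.00) were lowest. Of 14 measured quiescence and growth arrest genes, 0 were 1.2-fold higher and 1 lower, with a median of -0.08, from Tob2 (-0.35, -0.47 to -0.22) and Sesn3 (-0.24) to Btg1 (0.06) and Klf6 (0.12). None of 20 Myc targets passed 1.2-fold, and their median was 0.06, with the polyamine enzyme gene Odc1 (0.24) and Hspd1 (0.22) highest and Cad (-0.09) and Nolc1 (-0.05) lowest.

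**Figure D5:**
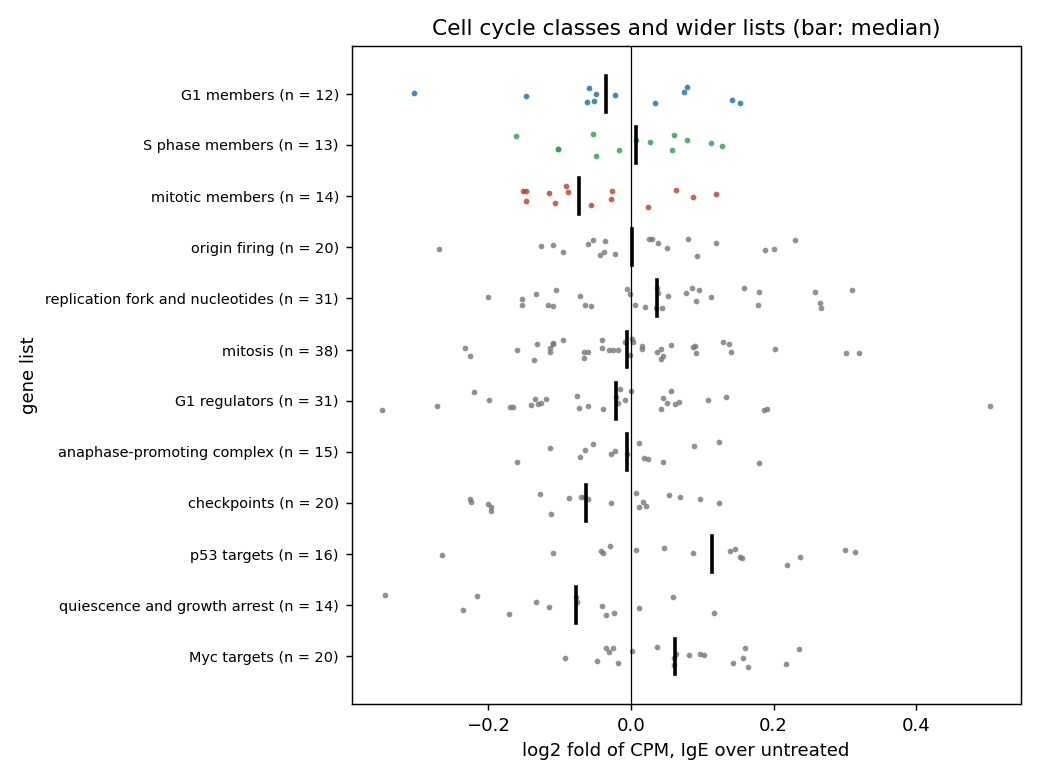
Log2 fold of CPM (IgE over untreated) of each measured gene of the 3 classes and the 9 wider lists, with the median as a black bar. Medians run from -0.08 (quiescence and growth arrest) to 0.11 (p53 targets), and most genes lie within 0.2 of 0.

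The medians of all these lists were smaller than that of cytosolic ribosomal protein genes in the same libraries. Of 71 measured genes with Rpl or Rps names, 70 lay above 0, with a median of 0.29, and 3.41% of the reads with IgE and 2.91% untreated fell on them. The part of this shift in the folds of cell cycle genes was not tested.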

How the data were processed

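RNA sequencing of poly(A) RNA covered 1 IgE and 1 untreated library. The authors deposited raw read counts per gene with a log2 fold, a p-value and its adjusted form, per the file headers. Per the submitters' processing notes, fastp 0.23.0, HISAT2 2.1.0, DESeq2 1.18.1 and rn6 were used. The sources used here name no counting tool and no strand setting. Reads of near-identical or overlapping genes cannot be separated. Of 16990 rows, 2077 repeated another row and were kept once. The authors' deposited values were recomputed, to within 4.67e-08 for the log2 fold, with edgeR's exact test at a fixed dispersion of 0.01, an assumption rather than a replicate estimate.

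Folds were computed with edgeR 4.0.16 in R 4.3.3 (TMM, prior of 0.5 counts) on genes with 20 or more reads, and the calculation was tested on simulated data. A count of 3 reads is 0.114 CPM with IgE and 0.143 CPM untreated. Intervals came from scipy 1.17.1, those of read ratios of 2 genes being normal approximations on the log scale. The members and lists were chosen with earlier results of these data known. All members are named, with the 2 highest and 2 lowest genes of each wider list. Alternatives were library totals, DESeq2 1.42.0 size factors, another prior, minimum or fold, summed reads, other class borders and medians without the most extreme gene. Protein sequences were not used here.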

Additional observations from a re-analysis of the deposited data

How the results depend on the processing

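No paired analysis was possible because there is 1 library a group, which also bars leaving any out. The count of members 2-fold apart stayed 0 under every alternative run, and the count 1.2-fold apart stayed 1 except with a 1.5-fold rule, which gave 0. Over all genes, 318 were 2-fold apart, against 203 with a prior of 5 counts, 1730 with no minimum, 36 with a minimum of 100 reads and 870 with a 1.5-fold rule. The summed reads of the G1 genes gave 0.0562 in place of their median of -0.04, and 0.0123 without Ccnd2, an alternative added after seeing the data. The difference of the S phase and G1 values was -0.0624 from summed reads in place of 0.04, and -0.0185 without Ccnd2. The mitotic minus G1 difference ran from -0.12 with summed reads to -0.04. The S phase median was below 0 with library totals (-0.0026), with other class borders (-0.0053) and with summed reads (-0.0062). Medians of classes and lists were held against the counting error of a typical single gene, from the median bounds of the genes in the set. For differences, the errors of both classes were combined. This width is not an interval of the median itself. Of the 45 alternative class medians and differences, 2 moved farther than this width and 8 changed sign. All 117 alternative folds of members stayed within the gene's own counting error, and 1, Rrm1 with library totals, changed sign. Of the 54 alternative medians of wider lists, 54 stayed within the single-gene width of the list and 2 changed sign, both of origin firing. Library totals moved the median of all genes by -0.00918. Cdkn2a, Foxm1 and Ccnd1 had the fewest reads of the genes named, so that depth limits them, and variation between cultures was not measured.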
